A study of Mus musculus with 8 samples.

Results

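The urokinase receptor and the genes around it that turn plasminogen into plasmin were followed in activated muscle stem cells (ASCs) with and without Mfn2, which encodes a mitochondrial outer membrane protein needed for fusion of mitochondria. The group held 4 genes of the 18877 in the table, namely Plaur (urokinase receptor, uPAR), Plau (urokinase, uPA), Plat (tissue plasminogen activator, tPA) and Serpine2 (protease nexin-1), found by their symbols. These genes were chosen by earlier results of the same mfn2-/- against wild-type comparison, so their differences between the genotypes are given as a description with no test. All 4 passed the filter on low values, a mean of at least 10 normalized reads over the 8 libraries, as did 11754 genes in all.

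Sorted cells of 4 wild-type and 4 mfn2-/- samples were profiled by RNA sequencing. The mice of both groups carried a mito-Dendra2 allele, a fluorescent mitochondrial protein, switched on by the tamoxifen-inducible Pax7-CreERT2 driver. That driver acts during tamoxifen in cells that express Pax7, the satellite cell transcription factor, and their progeny keep the label. According to the paper, the same driver and tamoxifen also deleted conditional Mfn2 alleles in the muscle stem cells of mfn2-/- mice. Both groups received tamoxifen at 75 mg/kg daily for 5 days. After a further 2 days the tibialis anterior muscle was injured with 50 uL of 1.2% BaCl2, and Dendra2+ CD34- DAPI- cells were sorted from it 2 days post injury. The genotype was the labelled difference, and the age of the mice is not given in the sources used here. The labels do not say that replicates were separate animals, so p-values measure only the spread between these samples. In such bulk samples, fewer cells of a type and less RNA per cell cannot be told apart.

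Plasminogen circulates as an inactive precursor and is cut to plasmin, a broad protease, by urokinase or tissue plasminogen activator. Urokinase works mostly at the cell surface, where the lipid-anchored receptor holds it, and the complex also binds vitronectin and signals through integrins. Serpins such as protease nexin-1 block the activators, and LRP1 takes the inhibited complexes into the cell. In injured muscle the system is known for clearing fibrin and matrix and for its part in the inflow of inflammatory cells and the migration of myoblasts.

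Depth ran from 1880464 to 7508215 reads per library, so that a single read stood for 0.534 to 2.27 normalized reads. The intervals on single values below are 95% Poisson intervals and cover counting error only, since reads carried no molecular identifiers. The mfn2-/- replicate 4 library stood apart, with 9646 genes detected against 12613 to 15270 in the others and 6.03% of its reads on 7SK, a small nuclear RNA, against 0.365% to 1.54%, and values of the 4 genes are also given without it. Reads of 4 Y-linked genes were present in 2 libraries of each genotype (wild-type replicates 3 and 4, and replicates 1 and 2 of mfn2-/-) and 0 in the other 4. Mfn2 itself averaged 229 ± 19.98 normalized reads in the wild-type group against 126 ± 31.4 in the mutant group (SD, n = 4 each), and its lowest wild-type value, 202, lay above the highest mfn2-/- value, 172. Its log2 difference was -0.88 (SE 0.30; adjusted p = 0.0848, limma). Summed over the 8 of 8 markers in the table, myogenic transcripts ran from 7958 to 13495 normalized reads in wild-type libraries against 26435 to 41043 in the mutant, with most of the difference in Sdc4 (4271 to 17473 on average) and Des (2156 to 7969). The satellite cell markers Pax7 (662 ± 45.9 and 715 ± 96.1) and Myf5 (207 ± 19.3 and 219 ± 40.9) differed by less than their spread, and Itga7 averaged 1249 and 621. Myod1 (172 ± 56.6 and 828 ± 110) and Vcam1 (1380 ± 148 and 3194 ± 280) were higher in mfn2-/- libraries without overlap. Cdh15 was at 557 ± 207 and 724 ± 111, with overlap. Fibroadipogenic markers (10 of 10), which a satellite cell sort should lack, summed to 172530 to 239397 in wild-type libraries against 997 to 3274 in mfn2-/- libraries. Tenocyte markers (6 of 6) summed to 35196 to 55709 against 306 to 404.

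The promoters of Plaur and Serpine2 are shown because the promoter reference used here held no entry for Plau and Plat. Each stretch covers the 250 bases before the RefSeq start (GRCm38.p6), 5′ to 3′ on the gene's strand. Plaur lies at chr7:24462233-24462482 on the plus strand and Serpine2 at chr1:79858666-79858915 on the minus strand. The RefSeq start used for Serpine2 lies inside the longer GENCODE gene given further on, so its stretch is upstream of that RefSeq start only. Capitals mark a match to the AP-1 letters TGANTCA.
Plaur: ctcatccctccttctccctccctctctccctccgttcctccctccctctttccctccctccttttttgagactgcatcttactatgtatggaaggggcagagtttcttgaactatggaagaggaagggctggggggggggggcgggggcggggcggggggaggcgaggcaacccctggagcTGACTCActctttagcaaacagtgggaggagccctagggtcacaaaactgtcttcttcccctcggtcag
Serpine2: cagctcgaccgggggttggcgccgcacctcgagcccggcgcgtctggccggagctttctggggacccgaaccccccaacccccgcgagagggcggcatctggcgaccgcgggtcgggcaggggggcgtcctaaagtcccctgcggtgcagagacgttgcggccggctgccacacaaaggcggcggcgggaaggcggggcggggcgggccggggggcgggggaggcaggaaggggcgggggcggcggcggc
The Plaur stretch held 1 AP-1 match, 69 bases before the start, and Serpine2 held 0. AP-1 letters were found on either strand in 6.75% of 32851 promoters of the same length. For the GC box GGGCGG, held by 32.7% of promoters, Plaur had 3 matches, which overlap or abut in a run of G and C, and Serpine2 had 6. The E-box CANNTG (66.2% of promoters) occurred once in Serpine2, 155 bases before its start, and not in Plaur. The NFAT core GGAAA (55.6%) occurred once in Plaur, 202 bases before the start, and not in Serpine2. Neither held the HIF core ACGTG (16.6%). The AP-1 and E-box letters read the same on both strands, and the others were searched on both. GC made up 59.6% of the Plaur and 78.8% of the Serpine2 stretch.

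Plaur, the receptor (chromosome 7, 24462484 to 24475968, plus strand, GENCODE M21 on GRCm38), was read at 77.3, 201, 75.1 and 46.5 normalized reads in wild-type replicates 1 to 4. In mfn2-/- replicates 1 to 4 it was 473, 521, 487 and 1103. The groups did not overlap: the lowest mfn2-/- library lay above the highest wild-type library, wild-type replicate 2. Wild-type replicate 1 rested on 34 reads (interval 53.5 to 108), whereas every mfn2-/- library held at least 602. The means were 100.03 ± 68.9 and 646 ± 305 (SD, n = 4 each), a 6.46-fold ratio, and the log2 difference was 2.80 (SE 0.43, 95% interval 1.87 to 3.72). Replicate 4 supplied much of the mfn2-/- spread: without it the mean of the other 3 was 494 ± 25.02 and the log2 difference 2.51 (SE 0.42).

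Myeloid cells are rich in urokinase receptor, so their markers are given beside it. Macrophage and monocyte markers (10 of 10 in the table) summed to between 65.2 and 293 normalized reads in the wild-type group against 91.3 to 152 in mfn2-/- libraries, and these ranges overlapped. The members of this list did not move together. Cx3cr1, a chemokine receptor, was at 79.8 ± 59.7 in the wild-type group against 5.72 ± 6.59 in mfn2-/- libraries. Ptprc, the pan-leukocyte marker CD45, was at or below 3 reads in every wild-type library, at 12.5 to 15.0 normalized reads in mfn2-/- replicates 1 to 3 and at 0 in mfn2-/- replicate 4. Csf1r, the receptor of macrophage growth factor CSF-1, was at most 2.67 in wild-type libraries, at most 11.8 in mfn2-/- replicates 1 to 3 and 71.5 in mfn2-/- replicate 4. Ccr2, the monocyte chemokine receptor, was also highest in that library, at 58.6 against at most 4.55 in the other 7. Emr1, which encodes F4/80, was 0 in all wild-type libraries and in mfn2-/- replicates 1, 3 and 4, and 14.2 in mfn2-/- replicate 2. Neutrophil markers (4 of 6) summed to 0.817 to 13.6 in wild-type and 0 to 46.4 in mfn2-/- libraries. Among them Cxcr2 was at most 2.67 in wild-type libraries and 0, 8.69, 18.4 and 44.0 in mfn2-/- replicates 1 to 4, S100a9 was 0 in all wild-type libraries and 16.2 in mfn2-/- replicate 3, and Ly6g was at or below 3 reads in all 8. The integrin chains Itgam and Itgb2, shared by both cell types, were highest in mfn2-/- replicate 4 as well, at 60.5 and 40.3. In that same library, however, Cd68, Cd14, C1qa, Fcgr1, S100a9 and Csf3r were at 0, and Lyz2 was at 12.8. That library also had the highest Plaur, and the part of myeloid cells in the Plaur difference was not tested. The myogenic, fibroadipogenic and tenocyte sums given above differed between the groups without overlap, and their part in it was not tested either.

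**Figure D1:**
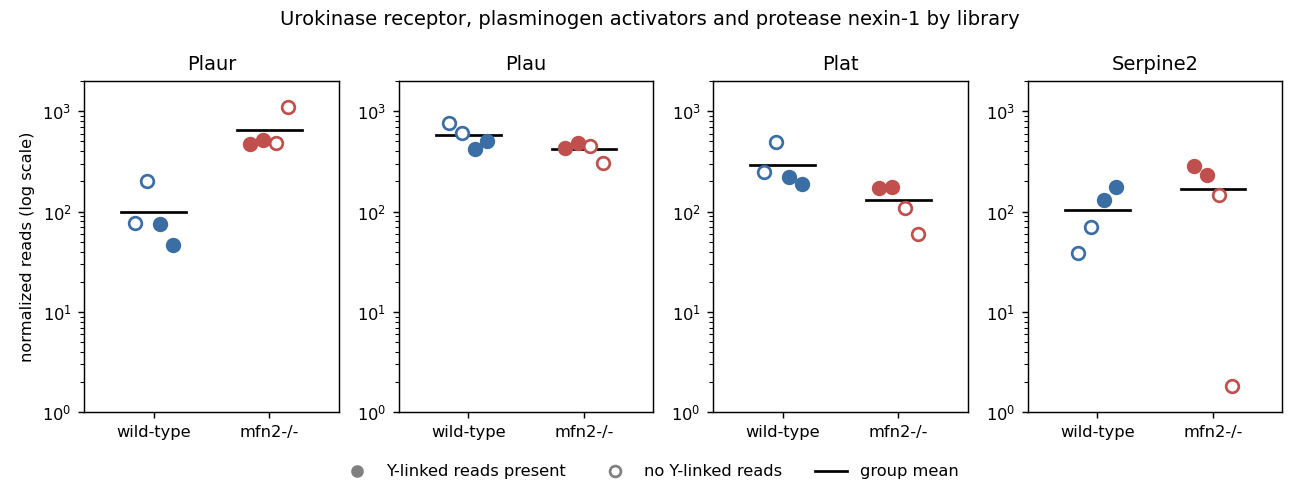
Normalized reads (log scale) of Plaur, Plau, Plat and Serpine2 in each of the 4 wild-type and 4 mfn2-/- libraries, with black lines at the group means and filled points for libraries with Y-linked reads. The Plaur groups stand apart (46.5 to 201 against 473 to 1103), Plat is lower without overlap, Plau overlaps, and Serpine2 is spread, with 1 mfn2-/- library at 1.83.

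Plau, the urokinase protease (chromosome 14, 20836660 to 20843385, plus strand), was read at 769, 609, 418 and 509 normalized reads in wild-type replicates 1 to 4. The mfn2-/- replicates 1 to 4 held 432, 486, 455 and 304. Wild-type replicates 1, 2 and 4 were above every mfn2-/- library, and wild-type replicate 3 fell among them. The means were 576 ± 150.1 and 419 ± 79.8 (SD, n = 4 each), and the log2 difference was -0.44 (SE 0.25, interval -0.97 to 0.09). Without mfn2-/- replicate 4 it was -0.30 (SE 0.23). The difference of the ligand thus had the opposite sign to that of its receptor, with an interval that includes 0.

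Plat, the activator that works on fibrin (chromosome 8, 22757727 to 22782844, plus strand), was read at 250.2, 492, 224 and 189.6 normalized reads in wild-type replicates 1 to 4. The mfn2-/- replicates 1 to 4 held 171, 178, 109.8 and 60.5. The groups did not overlap, although wild-type replicate 4 and mfn2-/- replicate 2 lay close together. The means were 289 ± 137 and 129.7 ± 55.3 (SD, n = 4 each), and the log2 difference was -1.17 (SE 0.42, interval -2.06 to -0.27). Without mfn2-/- replicate 4, whose 33 reads gave an interval of 41.6 to 84.9, it was -0.84 (SE 0.35). Plat is known from endothelium, and endothelial markers (7 of 7) summed to between 964 and 1477 normalized reads in the wild-type group against 1186 to 1732 in mfn2-/- libraries, overlapping ranges. The fibroadipogenic and tenocyte sums given above were lower in the same group as Plat, and their part in its difference was not tested.

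Serpine2, a surface-bound inhibitor of thrombin, urokinase and tPA (chromosome 1, 79794197 to 79861180, minus strand), was read at 38.7, 69.5, 131 and 175 normalized reads in wild-type replicates 1 to 4. In mfn2-/- replicates 1 to 3 it was 285, 232 and 147, and in replicate 4 it was 1.83, a single read with an interval of 0.0464 to 10.2. The groups overlapped, and the mfn2-/- group held both the highest and the lowest values. The mean was higher in mfn2-/- (167 ± 124 against 104 ± 61.3; SD, n = 4 each), while the log2 difference was negative, -0.31 (SE 1.19, interval -2.87 to 2.26). This direction hung on mfn2-/- replicate 4: without it the mfn2-/- mean was 221 ± 70.0 and the log2 difference 1.25 (SE 0.49). No direction was therefore settled for Serpine2.

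Among the 4 genes, 1 was higher and 1 lower in mfn2-/- without overlap between the groups. Over all genes tested, 7.36% were higher and 12.2% lower without overlap, and in the limma fit 3.99% were called higher and 6.36% lower. As the genes were chosen on this comparison, nothing is read from their count against those shares. The median log2 difference over all genes tested was -0.16, and quantile normalization moved it to 0.07. Under that scaling Plaur kept its sign, as under each of the 23 alternatives (2.46 to 3.20), and so did Plau (-0.88 to -0.01) and Plat (-2.09 to -0.24), but Serpine2 turned to 0.57.

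Levels of different genes were compared only per length, as normalized reads per kb of exon. In wild-type libraries the order of the mean levels was Plau at 243 ± 63.4, Plat at 46.3 ± 22.0, Plaur at 38.2 ± 26.3 and Serpine2 at 12.5 ± 7.40 (SD, n = 4). The means of Plat and Plaur were within their spread of each other, although Plat was above Plaur in every wild-type library. Plau was above Plat in every library. In mfn2-/- libraries Plaur was at 247 ± 117, Plau at 177 ± 33.7, Plat at 20.8 ± 8.86 and Serpine2 at 20.1 ± 14.9. There Plaur and Plau were within their spread of each other, as were Plat and Serpine2. Plaur lay below Plau and Plat in all 4 wild-type libraries but above Plat in all 4 mfn2-/- libraries.

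Ligand and receptor transcripts thus differed in their ratio. Per kb, Plau exceeded Plaur 3.35- to 12.1-fold in wild-type libraries. In mfn2-/- replicates 1 to 3 the ratio was 1.01 to 1.03, and in replicate 4 it was 0.305. The Plau to Plat ratio was 3.27 to 8.10 in wild-type and 6.67 to 13.3 in mfn2-/- libraries, and these ranges overlapped. These are ratios of transcripts and carry no measure of protein or of protease activity.

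**Figure D2:**
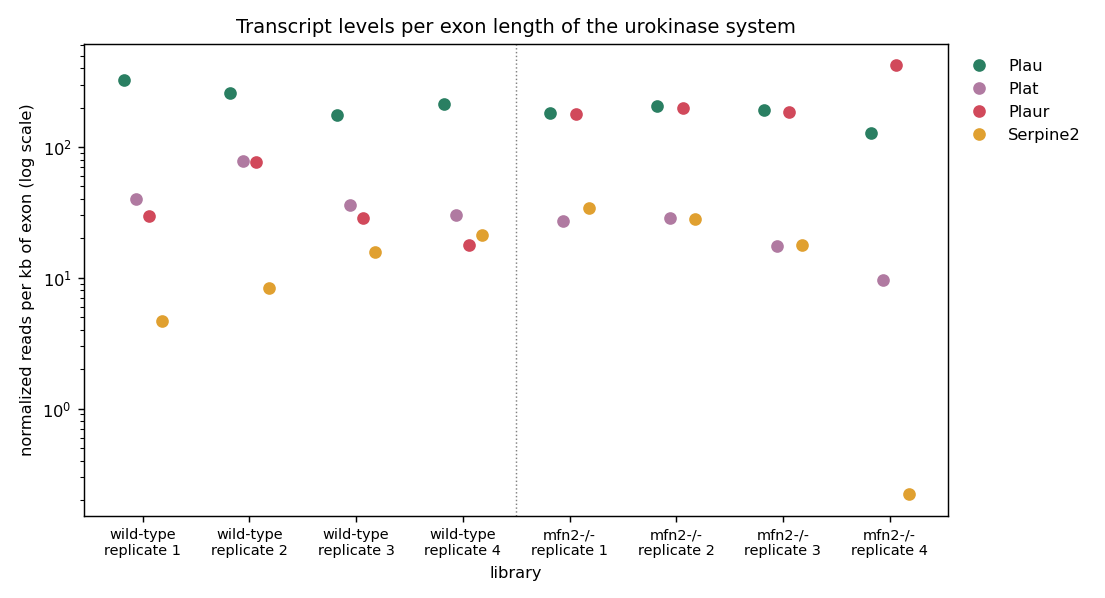
Normalized reads per kb of exon (log scale) of Plau, Plat, Plaur and Serpine2 in each library, wild-type left and mfn2-/- right of the dotted line. Plaur lies beside or below Plat in wild-type libraries (38.2 and 46.3 on average). In mfn2-/- replicates 1 to 3 Plaur lies beside Plau, and only in replicate 4 is it above Plau (422 and 129). The mfn2-/- means of 247 and 177 include that library.

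The presence of Y-linked reads was not used to choose the genes, so this contrast was tested, with genotype as a covariate. With minus without Y-linked reads, the log2 differences were -0.81 (SE 0.37) for Plaur, -0.13 (SE 0.24) for Plau, 0.16 (SE 0.42) for Plat and 2.60 (SE 0.98) for Serpine2. The adjusted p values (limma) were 0.487, 0.836, 0.890 and 0.399, so 0 of 4 passed, where 0.221% of all genes did. Plaur and Serpine2 had an unadjusted p under 0.05 in that limma fit, 0.0488 and 0.0211, as had 1205 genes (10.3%), and edgeR and DESeq2 called 0 of the 4. Without mfn2-/- replicate 4 the Serpine2 difference was 1.24. Each genotype had higher Serpine2 means with Y-linked reads, with 153 against 54.1 normalized reads for wild-type cells and 259 against 74.2 for mfn2-/- cells (n = 2 each). Both shallow libraries, wild-type replicate 1 and mfn2-/- replicate 4, lacked Y-linked reads, so depth and this split cannot be told apart for them.

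Within each side of that split the genotype differences, from 2 libraries against 2, were as follows. For Plaur the log2 difference was 3.05 (SE 0.31) with Y-linked reads and 2.54 (SE 0.59) without. For Plau it was -0.01 (SE 0.20) and -0.88 (SE 0.34). For Plat it was -0.24 (SE 0.27) and -2.09 (SE 0.61). Plaur was therefore higher in mfn2-/- on both sides, while the Plau and Plat differences lay almost wholly in the libraries without Y-linked reads. Serpine2 was at 0.76 (SE 0.28) with and -1.37 (SE 2.00) without. Leaving out the 2 shallowest libraries, both on the side without, gave 2.46 for Plaur, -0.15 for Plau, -0.88 for Plat and 0.86 for Serpine2. Whether these differences themselves differ between the sides was not tested for the 4 genes.

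Of 63 other genes listed for their role in the system, 8 were not analysed here, 15 fell below the filter and 40 were tested. In mfn2-/- libraries 1 was called higher and 9 lower, 2.50% and 22.5% of those tested against 3.99% and 6.36% of all genes, and 30 were not called. Those below the filter included Itgb2, the beta 2 integrin chain, Serpinb2, which encodes PAI-2, Hgf, Mmp9 and prothrombin (F2). The median log2 difference of the 40 was -0.50, beside -0.16 for all genes tested, with 13 positive and 27 negative values against 5191 and 6563. Leaving out mfn2-/- replicate 4 also gave 1 higher and 9 lower, and leaving out wild-type replicate 4 gave 1 higher and 5 lower. The fibroadipogenic sums moved with the genotype as given above, and connective tissue cells also express many of the genes called lower, so the part of those cells in these calls was not tested. The myogenic sums were higher in mfn2-/- libraries, as was the 1 gene called higher, and the part of cell composition in that call was not tested.

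Of 5 plasminogen surface receptors tested, 1 was called higher. S100a10, the annexin A2 partner that binds plasminogen at the cell surface, rose from 581 ± 107 to 1222 ± 311 normalized reads, a log2 difference of 1.05 (SE 0.22, adjusted p = 0.0096, limma), a call lost only with no intensity trend among 21 alternatives (adjusted p = 0.0873). Its lowest mfn2-/- value, 933, was above its highest wild-type value, 706. Its partner Anxa2 was at 515 ± 138 and 408 ± 259.6 with an adjusted p of 0.448 (limma), and Eno1, the enolase that also binds plasminogen, at 16.4 ± 16.5 and 72.4 ± 37.5 with an adjusted p of 0.128. Eno1 has many near-identical pseudogene copies, so its level is uncertain. Plasminogen itself (Plg), made mainly by liver, had 0 or 1 read in every library.

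The inhibitors gave 0 higher and 1 lower of 2 tested. A2m, the protease trap alpha-2-macroglobulin, was at 202, 96.4, 71.0 and 85.5 normalized reads in wild-type replicates 1 to 4 and at 0, 0, 2.21 and 38.5 in mfn2-/- replicates 1 to 4. It fell by 4.97 on the log2 scale (SE 1.24, adjusted p = 0.0218, limma), and this call was lost in 8 of 21 alternatives. Among them were leaving out any 1 wild-type library or mfn2-/- replicate 2, with an adjusted p of up to 0.0603, and edgeR gave 0.0935. With 2 mfn2-/- libraries at 0, its log2 difference depended on the pseudocount, at -6.75 with 0.1 and -2.88 with 10. Serpini1, neuroserpin, was at 105 ± 79.1 and 28.7 ± 21.8 with an adjusted p of 0.292.

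Among the partners through which the receptor binds matrix and signals, 0 of 9 tested were called higher and 3 lower. Itgb5, the integrin beta chain that pairs with alpha V on vitronectin, fell from 331 ± 51.8 to 71.7 ± 33.9 normalized reads, a log2 difference of -2.29 (SE 0.38, adjusted p = 0.0019, limma), and kept its call in all 21 alternatives. Mrc2, the collagen receptor that associates with uPAR, fell from 1637 ± 184 to 739 ± 295 (log2 -1.21, SE 0.24, adjusted p = 0.0068), a call lost only with no intensity trend among the 21. Itgb1, the beta 1 integrin chain, fell from 3390.01 ± 320.2 to 2129.96 ± 304 (log2 -0.68, SE 0.17, adjusted p = 0.0256), and that call was lost in 6 of 21, 4 of which left out 1 library, with an adjusted p of up to 0.159. Egfr and Itgav, the most abundant partners not called, were at 2143 ± 259 against 1528 ± 746 and at 789 ± 99.4 against 556 ± 85.9. The receptor and the called partners had opposite signs on the log2 scale, 2.80 for Plaur and -0.68 to -2.29 for those partners. Of the 9 partners tested, 8 had a negative and 1 a positive difference, Itga3 at 1.77 (not called, interval -0.81 to 4.35).

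Clearance of receptor and inhibitor complexes is carried out by LRP1 and its relatives, of which 5 were tested and 1 was called lower. Lrp1 fell from 13275 ± 692 to 5533 ± 1004 normalized reads (log2 -1.28, SE 0.20, adjusted p = 0.0011, limma). Its lowest wild-type value was 12431 and its highest mfn2-/- value 6695, and it kept its call in all 21 alternatives. Igf2r, which binds plasminogen and uPAR, was at 3115 ± 99.3 and 3030.5 ± 128 (log2 -0.04, interval -0.37 to 0.29). Vldlr, another receptor of the LRP1 family, was at 798 ± 148 and 645 ± 189.6 with an adjusted p of 0.424.

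In the family that shares the Ly6/uPAR fold, 6 genes were tested and 0 were called by limma in either direction. The most abundant were Cd59a, an inhibitor of complement, at 76.8 ± 10.4 and 31.3 ± 14.5 normalized reads (adjusted p = 0.200), and Ly6e, at 69.7 ± 31.3 and 70.3 ± 56.9 (adjusted p = 0.892). The log2 difference of Ly6e was -0.20 and turned positive under quantile normalization, edgeR and DESeq2.

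Of 8 tested substrates of urokinase and plasmin, 0 were called higher and 3 lower. Fn1, fibronectin, fell from 14754 ± 2926 to 501 ± 78.7 normalized reads (log2 -4.87, SE 0.20, adjusted p = 3.03e-09, limma), and Mmp2, gelatinase A, from 5121 ± 189 to 728 ± 105 (log2 -2.82, SE 0.17, adjusted p = 1.83e-07). Both kept their calls in all 21 alternatives. Mmp14, the membrane protease that activates Mmp2, fell from 627 ± 150.1 to 330.2 ± 50.9 (log2 -0.90, SE 0.24, adjusted p = 0.0325), but its call was lost in 10 of 21, with an adjusted p of up to 0.130. Met, the receptor of HGF, which urokinase can activate, was at 283 ± 66.5 and 499 ± 156 with an adjusted p of 0.105. Ltbp1, which holds latent TGF-beta in matrix, was at 2022 ± 328 and 1805 ± 556 with an adjusted p of 0.631.

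The thrombin axis, which Serpine2 also restrains, gave 0 higher and 1 lower of 5 tested. F3, tissue factor, which starts coagulation, fell from 94.7 ± 21.7 to 7.69 ± 5.45 normalized reads (log2 -3.95, SE 1.01, adjusted p = 0.0258, limma). Its call was lost in 5 of 21 alternatives, without each wild-type library in turn and with a pseudocount of 0.1, with an adjusted p of up to 0.0943, and its log2 difference was -4.86 at that pseudocount and -2.61 with 10. F2r, the thrombin receptor PAR1, was at 899 ± 263 and 1093 ± 111 (log2 0.33, interval -0.17 to 0.83), and Thbd, thrombomodulin, at 139 ± 53.5 and 199.6 ± 92.2 (adjusted p = 0.595).

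**Figure D3:**
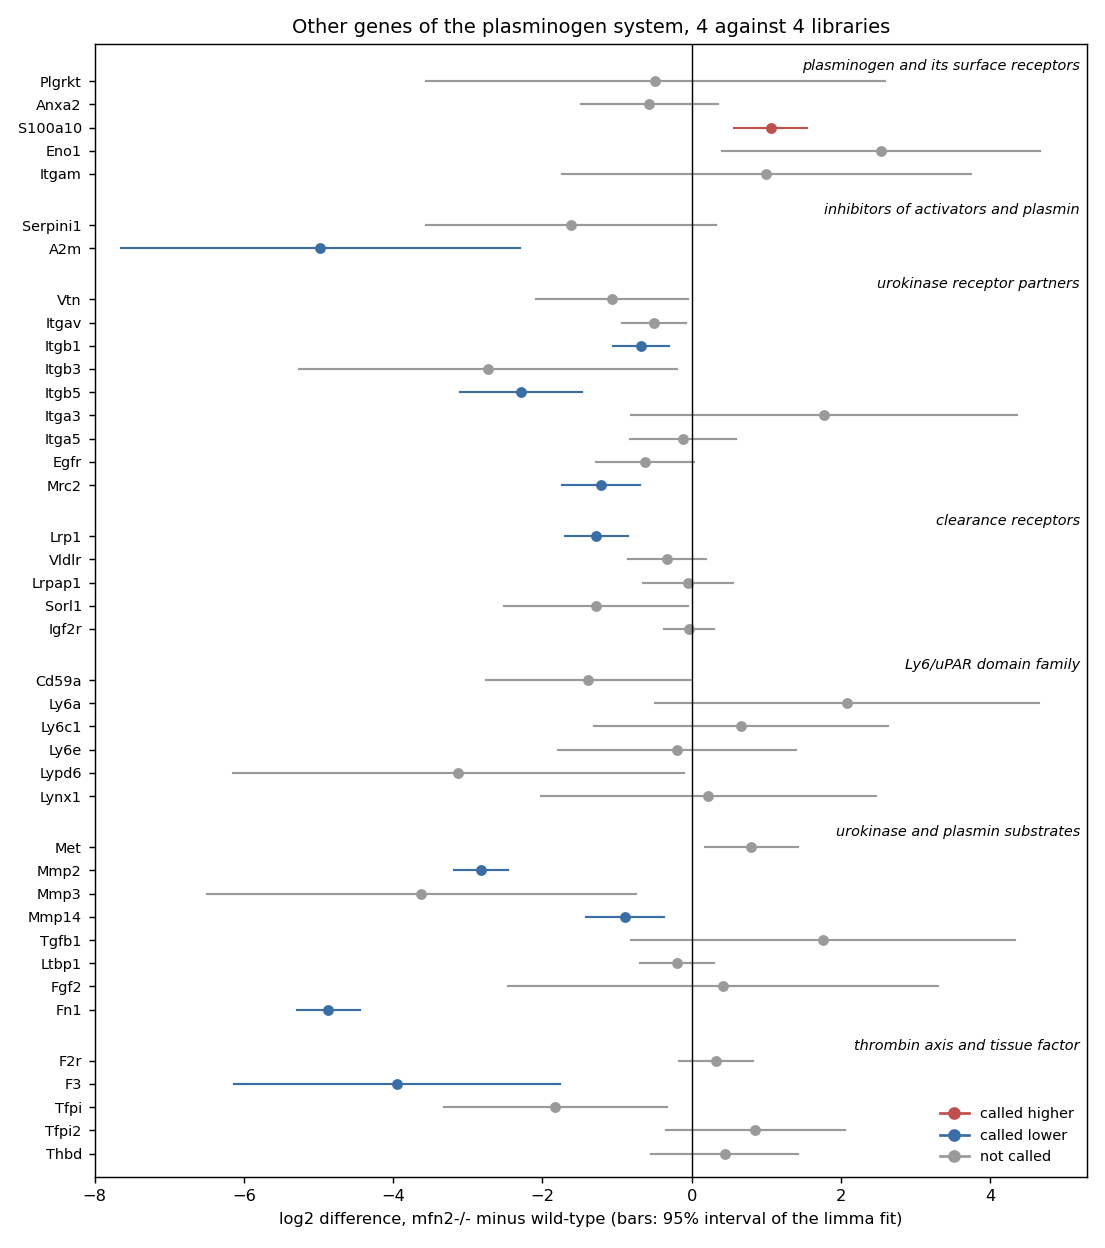
Log2 difference (mfn2-/- minus wild-type, 4 against 4 libraries) of the 40 other genes tested, grouped by role, with 95% intervals of the limma fit as bars. S100a10 is the gene called higher, at 1.05, and the 9 called lower run from -0.68 for Itgb1 to -4.97 for A2m, which is at -2.88 with a pseudocount of 10, where Fn1 is at -4.84.

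Genes whose profile over the 8 libraries was most like that of each member were named out of 5584 genes averaging 100 or more. The libraries share their genotype and the thin replicate 4, so these Pearson correlations are a description. For Plaur they were Eef1g, Patl1 and Slc9a3r1 (r = 0.99, 0.99 and 0.98, and 0.94, 0.93 and 0.89 within groups). For Plau they were Csnk1g1, Ap3b1 and Ubb (r = 0.98, 0.95 and 0.94). For Plat they were Plekha6, Acsf2 and P4ha2, each with r = 0.95. Serpine2 was most like Inpp5a, 1110004F10Rik and Lin7a (r = 0.99, 0.98 and 0.98). None of the 12 genes is another member or on the lists above.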

How the data were processed

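The libraries were stranded and made from low amounts of total RNA of sorted cells. The authors deposited 1 table of normalized read signal per gene symbol on a linear scale. Their processing notes name Trim Galore, HISAT2, featureCounts, DESeq2 and mm9, with no role or version. Dividing each library by its smallest step made 100% of its values whole (tolerance 0.02), so whole reads were recovered for depth, intervals and count-based alternatives. Of the symbols, 24 had been turned into dates. Because the deposited signal is normalized, limma was the main test.

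Genes with a mean of at least 10 were fitted with limma 3.58.1 (R 4.3.3) after adding 1 and taking log2, with a mean-variance trend, two-sided, with Benjamini-Hochberg adjustment at 0.05 over all genes tested. Log2 differences are on that scale and understate changes of low genes. The Y-linked contrast added that term to genotype. The fits were tested on simulated data. Members and lists were chosen with earlier results of these data known. Named were all members and, of each list, every gene called and the 2 most abundant not called. Plg and the genes named as below the filter were added after their values were seen. Exon lengths came from GENCODE M21 (GRCm38) and promoters from RefSeq (GRCm38.p6), not from the authors' build.

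The fits were repeated with a pseudocount of 0.1 or 10, with the filter dropped or raised to 50, after equal-total or quantile scaling, without the trend, with library weights, leaving out 1 library at a time, and with a replicate block, Y-linked reads as a term, edgeR 4.0.16 and DESeq2 1.42.0. Leaving out the 2 shallowest libraries was added after seeing the data. A gene of the inhibitor list is not reported here. Tables and figures were made in Python 3.11.15.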

Additional observations from a re-analysis of the deposited data

Results flagged for a closer look

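Single libraries far from the other 3 of their group were looked for in 54 groups of values, of which 4 passed and about 3 were expected, since chance marks about 1 in 20. Plaur in mfn2-/- replicate 4 was 1103 normalized reads (602 reads), against 473 to 521 in the other mfn2-/- libraries. A2m in the same library was 38.5 (21 reads), against 0 to 2.21. Mrc2 in wild-type replicate 2 was 1363, against 1712 to 1760.3, and Mmp14 in wild-type replicate 1 was 405, against 667 to 721.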

How the results depend on the processing

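Depth is among the limits: wild-type replicate 1 and mfn2-/- replicate 4 held the fewest reads. Genes under about 100 normalized reads rest there on few reads. Wild-type replicate 1 was the shallower of these (1880464 against 2269009 reads), yet 12613 genes were detected in it against 9646. A further limit is that the fibroadipogenic, tenocyte and myogenic sums differed between the genotypes without overlap. Plaur stayed higher in mfn2-/- in all 23 alternatives, and its values with each library left out ran from 2.51 to 3.20. Plau moved to -0.10 under library weights, -0.88 without and -0.0100 with Y-linked reads (-0.59 to -0.29 with each library left out), and Plat to -0.50, -2.09 and -0.24 (-1.36 to -0.84). Serpine2 turned to 0.10 at a pseudocount of 10, 0.57 under quantile normalization, 0.64 under library weights, 0.78 by edgeR, 0.68 by DESeq2, 0.76 with Y-linked reads and 0.86 without the 2 shallowest libraries, and ran from -0.97 to 1.25 with each library left out. The cause of these moves was not tested beyond the single read of mfn2-/- replicate 4.

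Of all genes, 469 were called higher and 748 lower. These counts were 113 higher with no trend, 1398 and 1639 under library weights, and 235 to 489 and 436 to 842 with each library left out. Of the listed genes, 1 higher and 9 lower became 0 and 5 with no trend, 2 higher under library weights, and 1 and 5 to 9 with each library left out. With against without Y-linked reads, Plat turned to -0.12 under library weights (-0.19 to 0.54 with each library left out), and Plau ran from -0.34 to 0.0205. Small differences of genes not called also turned: Igf2r to 0.0065 at equal totals and 0.028 by edgeR, Vldlr to 0.059 under library weights, and Ly6e to 0.19 under quantile normalization, 0.015 by edgeR and 0.00066 by DESeq2 (-0.69 to 0.30 with each left out). Anxa2 (adjusted p = 0.0309) and Itgav (0.0248) were called under library weights by limma.

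Same-numbered libraries did not deviate together (r = -0.03, -0.05, 0.04 and -0.11). No wild-type library correlated best with its own number, and of the mfn2-/- libraries only replicate 3 did. A replicate block left Plaur at 2.80 and gave 434 higher and 609 lower genes. Under it Mmp14 lost its call.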
